A study of Homo sapiens with 9 samples.

Results

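Nuclear genes that encode subunits of the mitochondrial respiratory chain were followed in HT-29, a long-established human colon adenocarcinoma cell line, after 24 h of culture with rosemary extract, with carnosic acid or with the vehicle. They were chosen by name from the array's annotation, as symbols of the NDUF, SDH, UQCR, COX4 to COX8 and ATP5 subunit families plus CYC1, without pseudogenes and hyphenated names, and each gene was read from its brightest row. This gave 25 genes of the 14884 with a named row. The study had 3 arrays of cells given rosemary extract, a polyphenol-rich plant extract, 3 of cells given carnosic acid, a phenolic diterpene of rosemary, and 3 of untreated cells. The samples' labels say untreated, and the treatment protocol in the labels names vehicle as the control. The sources used here give no dose of either treatment, so the doses may not match. Arrays of a group are biological replicates by the design text, which names no culture day, and each p-value measures the spread between these arrays, which may be partly technical. The arrays are written R1 to R3 (rosemary extract), C1 to C3 (carnosic acid) and U1 to U3 (untreated).

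The respiratory chain passes electrons from NADH and succinate to oxygen in the inner mitochondrial membrane. Complex III (the cytochrome bc1 complex) hands electrons from ubiquinol to cytochrome c, complex IV (cytochrome c oxidase) passes them to oxygen, and the proton gradient they build drives ATP synthase. Most subunits are encoded in the nucleus and surround a catalytic core that is partly encoded in mitochondrial DNA. Colon epithelial cells normally rely on respiration, while many colon cancer lines also run strong glycolysis.

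The 25 genes were not a sample of the whole chain. They comprised 6 genes of complex III (CYC1, UQCRB, UQCRC1, UQCRC2, UQCRH and UQCRHL) and 17 of complex IV (COX4I1, COX4I2, COX5A, COX5B, COX6A1, COX6A2, COX6B1, COX6B2, COX6C, COX7A1, COX7A2, COX7A2L, COX7B, COX7B2, COX7C, COX8A and COX8C). ATP synthase gave 2 small membrane subunits, ATP5MJ and ATP5MK. A current RefSeq gene table lists, by the same name patterns, 10 protein-coding genes of complex III, 17 of complex IV and 18 of ATP synthase. It also lists 36 of complex I and 4 of complex II, none of which had a row with 1 named gene (0 and 0). Complexes I and II were thus not analysed here, and neither were the 13 mitochondrially encoded subunits, of which 0 had a named row.

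Of the 25 genes, 22 passed the filter on dim rows and were tested. The other 3, COX6B2, COX7B2 and COX8C, averaged under the limit of 4.50 (log2 expression value), below which the dimmest 25% of named genes lay. All 3 are isoforms known from testis. COX6B2 lay nearest the limit, averaging 4.42 ± 0.12 with rosemary extract, 4.10 ± 0.33 with carnosic acid and 4.53 ± 0.13 in untreated cells (log2, SD, n = 3 each). COX7B2 averaged 3.34, 3.38 and 3.35, and COX8C 3.29, 3.10 and 3.10, in rosemary extract, carnosic acid and untreated cells in that order. These values carry no detection call, so whether the genes are transcribed in HT-29 cells was not shown.

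To show the start regions of genes with the smallest p against untreated cells, windows of 150 bases (120 before to 30 after the annotated start) were taken from RefSeq on GRCh38.p14. The 4 such genes are UQCRC2, COX4I1, COX6A2 and COX7A2L. COX6B1 and COX8A, both called lower, were added after a motif search because they hold an ETS-type motif in this window. ATP5MK, COX5B, COX6A1 and UQCRH hold it there too and are not shown. The windows with the motif shown here are thus only from genes called lower. Capitals mark CCGGAAG or its reverse complement, the core bound by ETS factors such as GABP, a known activator of respiratory genes.
UQCRC2, chr16:21953241-21953390, plus strand: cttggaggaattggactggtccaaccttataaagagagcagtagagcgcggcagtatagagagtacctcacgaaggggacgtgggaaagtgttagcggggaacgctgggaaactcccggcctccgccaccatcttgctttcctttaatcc
COX4I1, chr16:85799575-85799724, plus strand: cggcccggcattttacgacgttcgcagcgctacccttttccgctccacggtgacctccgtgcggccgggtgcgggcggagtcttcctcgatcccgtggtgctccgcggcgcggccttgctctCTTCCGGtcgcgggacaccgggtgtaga
COX6A2, chr16:31428331-31428480, minus strand: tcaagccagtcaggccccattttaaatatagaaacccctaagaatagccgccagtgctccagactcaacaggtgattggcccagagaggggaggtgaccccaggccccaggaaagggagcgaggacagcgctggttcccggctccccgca
COX7A2L (start 1 of 2), chr2:42361188-42361337, minus strand: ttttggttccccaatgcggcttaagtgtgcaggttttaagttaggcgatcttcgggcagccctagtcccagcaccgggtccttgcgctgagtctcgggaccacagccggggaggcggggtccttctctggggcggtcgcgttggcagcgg
COX7A2L (start 2 of 2), chr2:42368928-42369077, minus strand: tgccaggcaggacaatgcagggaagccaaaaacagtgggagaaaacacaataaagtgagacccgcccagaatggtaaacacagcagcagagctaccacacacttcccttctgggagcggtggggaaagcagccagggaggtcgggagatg
COX6B1, chr19:35648203-35648352, plus strand: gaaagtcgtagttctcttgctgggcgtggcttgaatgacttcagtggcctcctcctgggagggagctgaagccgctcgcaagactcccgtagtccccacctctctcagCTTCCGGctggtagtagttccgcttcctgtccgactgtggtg
COX8A, chr11:63974500-63974649, plus strand: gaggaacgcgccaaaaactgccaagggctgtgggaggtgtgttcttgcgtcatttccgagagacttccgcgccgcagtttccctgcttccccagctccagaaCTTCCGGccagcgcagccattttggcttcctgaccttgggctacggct
In COX4I1 the motif began at base 3 counted from the annotated start, in COX6B1 12 bases before the start and in COX8A 18 bases before it, each on the reverse strand. The 300-base windows of RefSeq (250 before to 50 after a start) were searched on both strands for 19 of the genes, which had 21 windows. CCGGAAG occurred in 7 of the 21 windows (33.3%), against 10.3% of 35116 windows of all genes. The 7 were those of ATP5MK, COX4I1, COX5B, COX6A1, COX6B1, COX8A and UQCRH. The NRF1 motif GCGCATGC occurred in 2 of 21 (9.52%, COX5B and COX6A1), against 3.05% of all windows. The YY1 motif AAGATGGC occurred in 1 of 21 (4.76%, UQCRC1), against 2.89%. Genes holding the ETS motif included ones lower with both treatments (COX4I1, COX6B1), 1 lower with the extract (COX8A), 1 higher with it (ATP5MK) and 3 that did not pass in either comparison. A letter match is a description of the sequence and was not tested as a binding site.

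With rosemary extract, 9 of the 22 tested genes differed from untreated cells, 7 of them lower and 2 higher. The lower ones were the complex III subunits UQCRC2 and CYC1 and the complex IV subunits COX4I1, COX5A, COX6B1, COX7B and COX8A. Their levels were 1.16-fold to 1.32-fold lower, on the scale of differences of mean log2 values. The higher ones were COX7A2L and the ATP synthase subunit ATP5MK. The share passing, 40.9%, was near the 38.1% of all 11163 genes called in this comparison (limma, adjusted p under 0.05 over all genes). Called lower were 31.8% of the subunit genes and 16.3% of all genes, and called higher were 9.09% and 21.8%.

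With carnosic acid, 7 of the 22 genes were lower than in untreated cells and 0 were higher (0 also at an unadjusted p under 0.05). They were UQCRC2, COX4I1, COX4I2, COX5A, COX6A2, COX6B1 and COX7C. COX6A2 lay near the dim limit, and the others were 1.18-fold to 1.38-fold lower. The share called lower was 31.8%, against 6.12% of all genes, and 12.9% of all genes were called higher (19.0% in either direction). Of all 11163 genes, 1440 were called higher and 683 lower, a split that became 1650 and 473 when each array was centred on the median of all rows, and 1207 and 1098 when it was centred on that of the tested genes. Of the subunit genes 4 were called lower under the first centring, 10 under the other and 2 when all rows were tested, with 0 higher in each. With all rows tested, 1746 of 53617 rows were called higher and 828 lower. The 2 comparisons share their untreated arrays, so the lower calls of one are not independent of those of the other.

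As a list, the 22 genes had a median log2 difference of -0.13 with rosemary extract and of -0.19 with carnosic acid. All tested genes had medians of -0.018 and -0.011. The difference was negative for 15 of the 22 genes with the extract and for 17 with carnosic acid. Array by array, the median deviation of the 22 genes from their untreated means was -0.13, -0.17 and -0.15 in the extract arrays, -0.19, -0.20 and -0.14 in the carnosic acid arrays, and -0.0082, -0.051 and 0.024 in the untreated arrays. All 6 treated arrays lay below the 3 untreated ones in this median. Over all tested genes the same medians lay between -0.025 and 0.017. By complex, the median differences with the extract and with carnosic acid were -0.13 and -0.10 for the 6 complex III genes, and -0.17 and -0.24 for the 14 tested complex IV genes. In a bulk measurement of this kind, fewer cells of a type and less RNA per cell cannot be told apart.

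**Figure D1:**
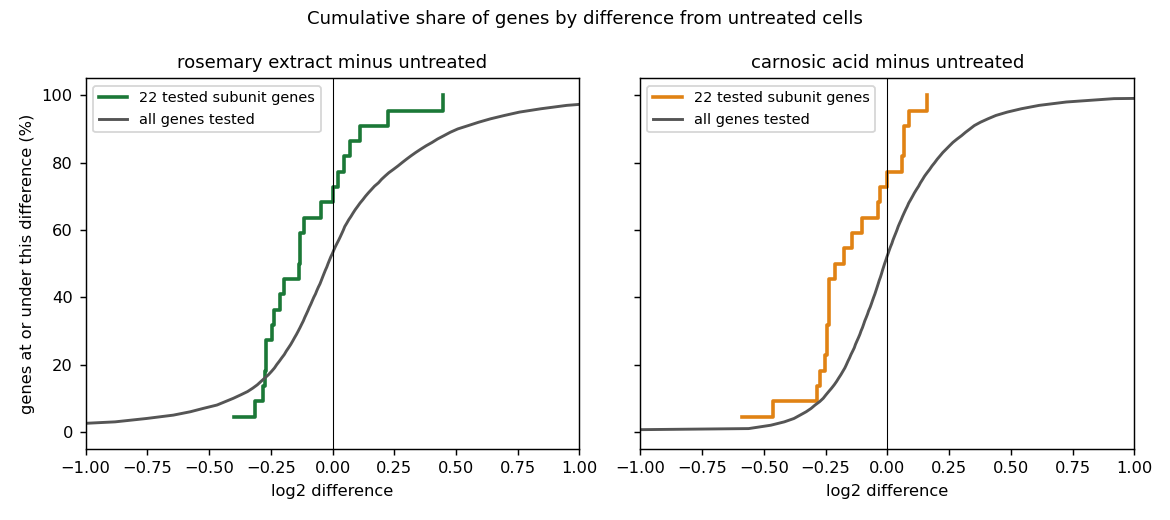
Cumulative share of genes (y axis, %) at or under a given log2 difference from untreated cells (x axis) for rosemary extract (left) and carnosic acid (right). Coloured steps are the 22 tested subunit genes and grey curves all 11163 tested genes, of which those beyond a difference of 1 in size are not drawn. The steps lie left of the grey curve over most of their range, and their medians are -0.13 and -0.19.

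In complex III, UQCRC2, a core protein of the matrix side, had the smallest standard error. Its log2 values were 10.94, 10.89 and 10.94 with rosemary extract, 10.88, 10.96 and 11.05 with carnosic acid, and 11.17, 11.15 and 11.29 in untreated cells. Every treated array lay below every untreated one. The difference from untreated cells was -0.28 ± 0.054 with the extract (SE, limma adjusted p = 0.00149) and -0.24 ± 0.054 with carnosic acid (adjusted p = 0.0104). Between the treatments UQCRC2 differed by -0.044 (extract minus carnosic acid, 95% interval -0.16 to 0.075). RefSeq names 1 pseudogene of UQCRC2, and whether the row's probes also match it was not tested.

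CYC1, cytochrome c1, is the only haem-bearing catalytic subunit among the genes with a row, and the other 15 catalytic core subunits listed for the chain had none. It measured 9.35, 9.41 and 9.55 with rosemary extract, 9.44, 9.56 and 9.71 with carnosic acid, and 9.75, 9.93 and 9.56 in untreated cells. The extract arrays all lay below the untreated ones, and the carnosic acid arrays overlapped them. CYC1 was -0.31 ± 0.096 with the extract (SE, adjusted p = 0.0237) and -0.18 ± 0.096 with carnosic acid (adjusted p = 0.235). The direct difference was -0.14 (95% interval -0.35 to 0.076), so no difference between the treatments was shown. Leaving out U1, U2, R1 or R2 ended the extract's call (adjusted p = 0.0626, 0.0987, 0.0954 and 0.0739).

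The other complex III genes did not pass in any comparison. UQCRC1, the core protein that partners UQCRC2, averaged 8.81 ± 0.07 with the extract, 8.81 ± 0.11 with carnosic acid and 8.74 ± 0.03 in untreated cells (log2, SD, n = 3 each). Its difference from untreated cells was 0.073 with the extract (95% interval -0.073 to 0.22) and 0.068 with carnosic acid (-0.077 to 0.21). UQCRH, the hinge protein beside cytochrome c1, was at 6.49 in all 3 extract arrays, at 6.49, 6.26 and 6.46 with carnosic acid, and at 6.43, 6.46 and 6.96 in untreated cells. The third untreated array lay highest and the second carnosic acid array lowest, apart from the rest. UQCRHL, an intronless near-copy of UQCRH, averaged 9.09 ± 0.04, 9.19 ± 0.12 and 9.22 ± 0.20 in extract, carnosic acid and untreated cells. The array may not tell such copies apart, so both rows are uncertain. UQCRB, which lies at the ubiquinone site, held 1 value, 4.78, in 6 of the 9 arrays and lay close to the dim limit. Only 0.923% of tested genes had as many arrays at 1 value. The platform annotation pairs the UQCRB row with a noncoding transcript.

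In complex IV, COX4I1 is the widely expressed form of subunit 4, which binds ATP and tunes the enzyme. Its values were 10.72, 10.74 and 10.82 with rosemary extract, 10.77, 10.71 and 10.86 with carnosic acid, and 11.09, 10.95 and 11.06 in untreated cells. All treated arrays lay below all untreated ones. COX4I1 was -0.27 ± 0.054 with the extract (SE, adjusted p = 0.00197) and -0.25 ± 0.054 with carnosic acid (adjusted p = 0.00724). The treatments differed by -0.017 (95% interval -0.14 to 0.10). Both calls held under each of the 19 other settings and left-out arrays tried.

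COX5A, which sits with COX4I1 next to the mitochondrially encoded core, gave like sizes. It measured 10.45, 10.53 and 10.60 with the extract, 10.50, 10.51 and 10.65 with carnosic acid, and 10.84, 10.67 and 10.89 in untreated cells. The highest carnosic acid array and the lowest untreated array nearly met. COX5A was -0.27 ± 0.068 with the extract (SE, adjusted p = 0.00732) and -0.25 ± 0.068 with carnosic acid (adjusted p = 0.0262). Leaving out U1, U3, C1 or C2 ended the carnosic acid call (adjusted p = 0.089, 0.083, 0.1 and 0.083), as did median centring (0.0752), a fit to the 6 arrays compared (0.0528) and eBayes without trend (0.0642). COX5B, the zinc-binding subunit, did not pass with either treatment (0.11, adjusted p = 0.394, and -0.0029, adjusted p = 0.987).

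COX6B1, on the intermembrane face near cytochrome c, measured 7.93, 8.02 and 8.02 with the extract, 7.90, 7.87 and 8.02 with carnosic acid, and 8.11, 8.28 and 8.22 in untreated cells. R2, R3 and C3 held 1 value, as they did for ATP5MJ, and 42.4% of tested genes had 2 or more arrays at 1 value. How such ties bear on the spread was not tested. The treated arrays of COX6B1 again lay below the untreated ones. The difference was -0.21 ± 0.069 with the extract (SE, adjusted p = 0.0293) and -0.27 ± 0.069 with carnosic acid (adjusted p = 0.0170). Without U2 neither call held (adjusted p = 0.0994 with the extract and 0.0609 with carnosic acid). That of the extract also ended without U3, R1 or R2 (0.0662, 0.108 and 0.0592), and that of carnosic acid without C1 or C2 (0.0641 and 0.0634). Median centring ended both (0.0811 with the extract and 0.0511 with carnosic acid). RefSeq names 7 pseudogenes of COX6B1, 2 of COX4I1 and 2 of COX5A, and probe matches to them were not tested.

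COX8A, the broadly expressed form of subunit 8, differed between the treatments. It measured 11.16, 11.13 and 11.22 with rosemary extract, 11.49, 11.66 and 11.77 with carnosic acid, and 11.57, 11.76 and 11.38 in untreated cells. The extract arrays lay below all others, and the carnosic acid and untreated arrays overlapped. COX8A was -0.40 ± 0.090 with the extract (SE, adjusted p = 0.00422), 0.067 ± 0.090 with carnosic acid (adjusted p = 0.655) and -0.47 ± 0.090 between extract and carnosic acid (adjusted p = 0.00390). The calls with the extract and between the treatments held in each of the 19 other settings tried. RefSeq names 0 pseudogenes of COX8A.

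COX7A2L, a protein related to subunit 7A that helps join complexes III and IV into supercomplexes, was the only complex IV family gene called higher with the extract. Its values were 6.29, 6.14 and 6.03 with rosemary extract, 5.90, 5.73 and 5.97 with carnosic acid, and 5.62, 5.75 and 5.75 in untreated cells. The extract arrays lay above all others, while 1 carnosic acid array fell among the untreated ones. COX7A2L was 0.45 ± 0.098 with the extract (SE, adjusted p = 0.00351) and 0.16 ± 0.098 with carnosic acid (adjusted p = 0.288). The treatments differed by 0.28 (95% interval 0.070 to 0.50, adjusted p = 0.0723), which passed without R3 (0.35, adjusted p = 0.0482). COX7A2, the subunit it resembles, was -0.20 with the extract (adjusted p = 0.0670) and -0.23 with carnosic acid (adjusted p = 0.0563), and in both cases the treated arrays lay below the untreated ones. Those of COX7A2 passed without U1 (-0.26, adjusted p = 0.0248, and -0.30, adjusted p = 0.0278). The platform annotation pairs the COX7A2 row with a noncoding transcript, and RefSeq names 2 pseudogenes of COX7A2. Which transcripts this row reads was not tested.

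**Figure D2:**
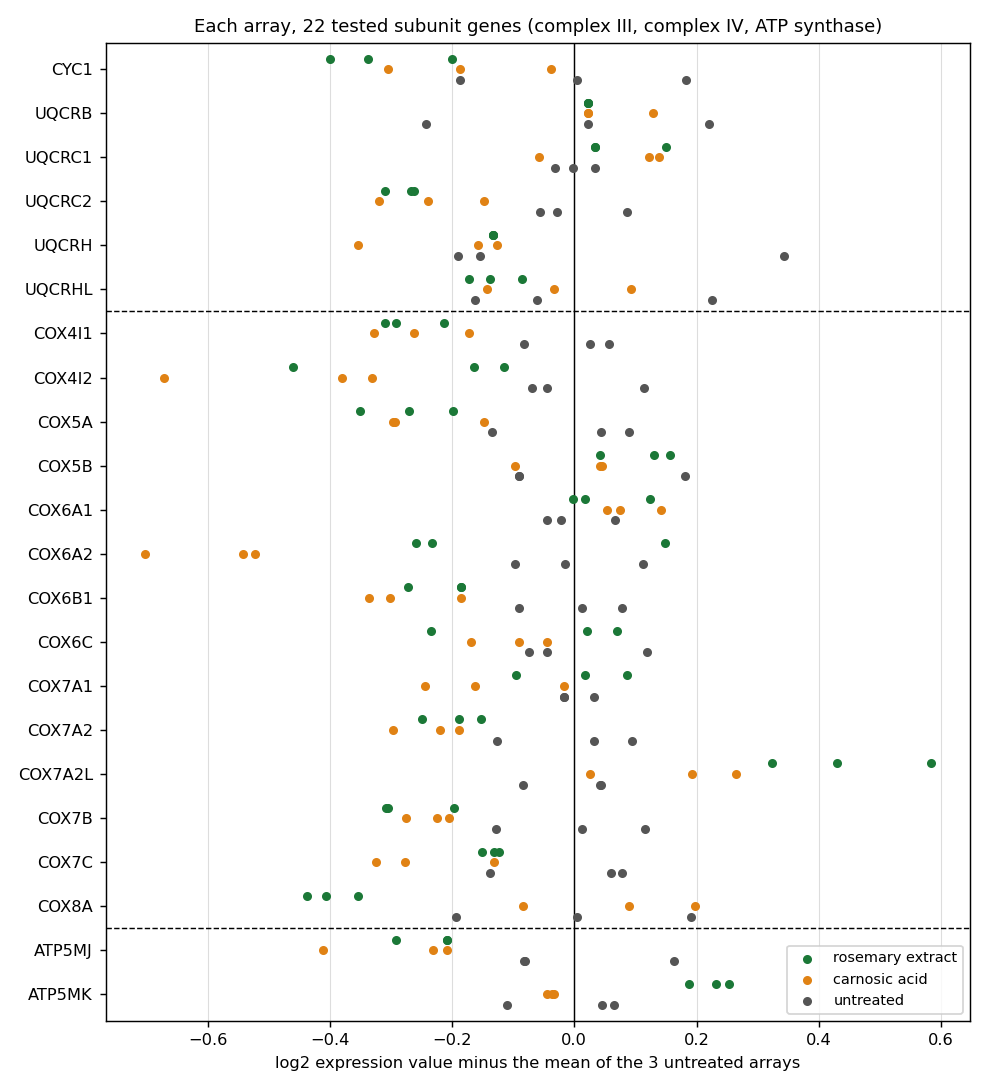
Log2 expression value of each array minus the mean of the 3 untreated arrays (x axis) for the 22 tested genes (y axis), with complex III at the top, complex IV in the middle and ATP synthase at the bottom, split by dashed lines. Each dot is 1 array, and some coincide. For COX4I1, COX6B1 and UQCRC2 all green and orange dots lie left of the grey ones, COX8A has only its green dots apart, and COX7A2L has green dots furthest right.

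COX7B, a small subunit of complex IV, measured 7.04, 7.04 and 7.15 with the extract, 7.13, 7.14 and 7.07 with carnosic acid, and 7.46, 7.22 and 7.36 in untreated cells. It was -0.27 ± 0.078 with the extract (SE, adjusted p = 0.0175) and -0.24 ± 0.078 with carnosic acid (adjusted p = 0.0587). No array of either treatment overlapped the untreated ones. The extract's call on COX7B ended without U1, R1 or R2 (adjusted p = 0.0703, 0.0613 and 0.0644), and carnosic acid passed without U2 (-0.30, adjusted p = 0.0275).

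COX7C, another small subunit, measured 8.38, 8.36 and 8.39 with the extract, 8.19, 8.24 and 8.38 with carnosic acid, and 8.57, 8.38 and 8.59 in untreated cells. The highest carnosic acid array lay above the lowest untreated one. COX7C was -0.14 ± 0.074 with the extract (SE, adjusted p = 0.185) and -0.24 ± 0.074 with carnosic acid (adjusted p = 0.0407). The carnosic acid call was among the least stable, lost in 12 of 19 other settings. Leaving out any 1 array other than U2 or C3 ended it, with adjusted p between 0.051 and 0.15, and without U2 the extract passed (-0.20, adjusted p = 0.0463).

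COX6A1 and COX6C did not pass with either treatment. COX6A1, a widely expressed regulatory subunit, differed by 0.046 with the extract (95% interval -0.058 to 0.15) and by 0.090 with carnosic acid (-0.014 to 0.19). Its dimmer second row lay under the dim limit in every array. Whether either row also matches the 6 pseudogenes that RefSeq names for COX6A1 was not tested. COX6C, which has 18 named pseudogenes, differed by -0.048 (-0.27 to 0.17) and -0.10 (-0.32 to 0.12).

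Of the tested isoforms usually tied to one tissue, COX6A2 and COX7A1 were measured near the dim limit. COX4I2 lay above it, between 5.23 and 6.02. COX6A2, the heart and skeletal muscle form of subunit 6A, measured 5.26, 4.88 and 4.85 with the extract, 4.41, 4.59 and 4.57 with carnosic acid, and 5.10, 5.22 and 5.01 in untreated cells. The carnosic acid arrays lay below all others, close to the limit of 4.50, so their distance from background is unknown. COX6A2 was -0.59 ± 0.12 with carnosic acid (SE, adjusted p = 0.00480), -0.11 ± 0.12 with the extract (adjusted p = 0.495) and 0.47 ± 0.12 between extract and carnosic acid (adjusted p = 0.0160). The difference between the treatments did not pass for COX6A2 without R1 or C1 (adjusted p = 0.0563 and 0.0598).

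COX4I2, the form of subunit 4 known from lung and from oxygen sensing, measured 5.74, 5.44 and 5.79 with the extract, 5.57, 5.52 and 5.23 with carnosic acid, and 5.86, 6.02 and 5.84 in untreated cells. Arrays of both treatments lay below the untreated ones. It was -0.25 ± 0.12 with the extract (SE, adjusted p = 0.137) and -0.46 ± 0.12 with carnosic acid (adjusted p = 0.0203). For COX4I2 the carnosic acid difference did not pass without U2 or C3 (adjusted p = 0.0767 and 0.0705). COX7A1, a further muscle form, did not pass (0.0031, adjusted p = 0.983 with the extract, and -0.14, adjusted p = 0.301 with carnosic acid). Of these 6 restricted isoforms 3 were tested, and 0 were called with the extract (38.1% of all genes) and 2 with carnosic acid (19.0%).

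In ATP synthase, ATP5MK (also called DAPIT) is a small membrane subunit that helps the enzyme pair into dimers. It measured 7.40, 7.38 and 7.33 with rosemary extract, 7.10, 7.11 and 7.11 with carnosic acid, and 7.21, 7.03 and 7.19 in untreated cells. All extract arrays lay above the others. ATP5MK was 0.22 ± 0.070 with the extract (SE, adjusted p = 0.0258), -0.038 ± 0.070 with carnosic acid (adjusted p = 0.758) and 0.26 ± 0.070 between extract and carnosic acid (adjusted p = 0.0244). Without U2, R1 or R2 the ATP5MK difference with the extract did not pass (adjusted p = 0.0866, 0.0818 and 0.0735). The direct one did not pass without R1, R2 or any of the 3 carnosic acid arrays (adjusted p between 0.0619 and 0.0868).

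ATP5MJ, the other small membrane subunit, averaged 6.19 ± 0.05 with the extract, 6.14 ± 0.11 with carnosic acid and 6.43 ± 0.14 in untreated cells (log2, SD, n = 3 each). Its treated arrays lay below its untreated ones. The differences, -0.24 with the extract (adjusted p = 0.0712) and -0.28 with carnosic acid (adjusted p = 0.0582), did not pass. Centring the arrays on the tested genes brought both past the threshold (-0.27, adjusted p = 0.0378, and -0.33, adjusted p = 0.0270). The single ATP synthase gene called with the extract, ATP5MK, had the opposite sign to ATP5MJ.

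**Figure D3:**
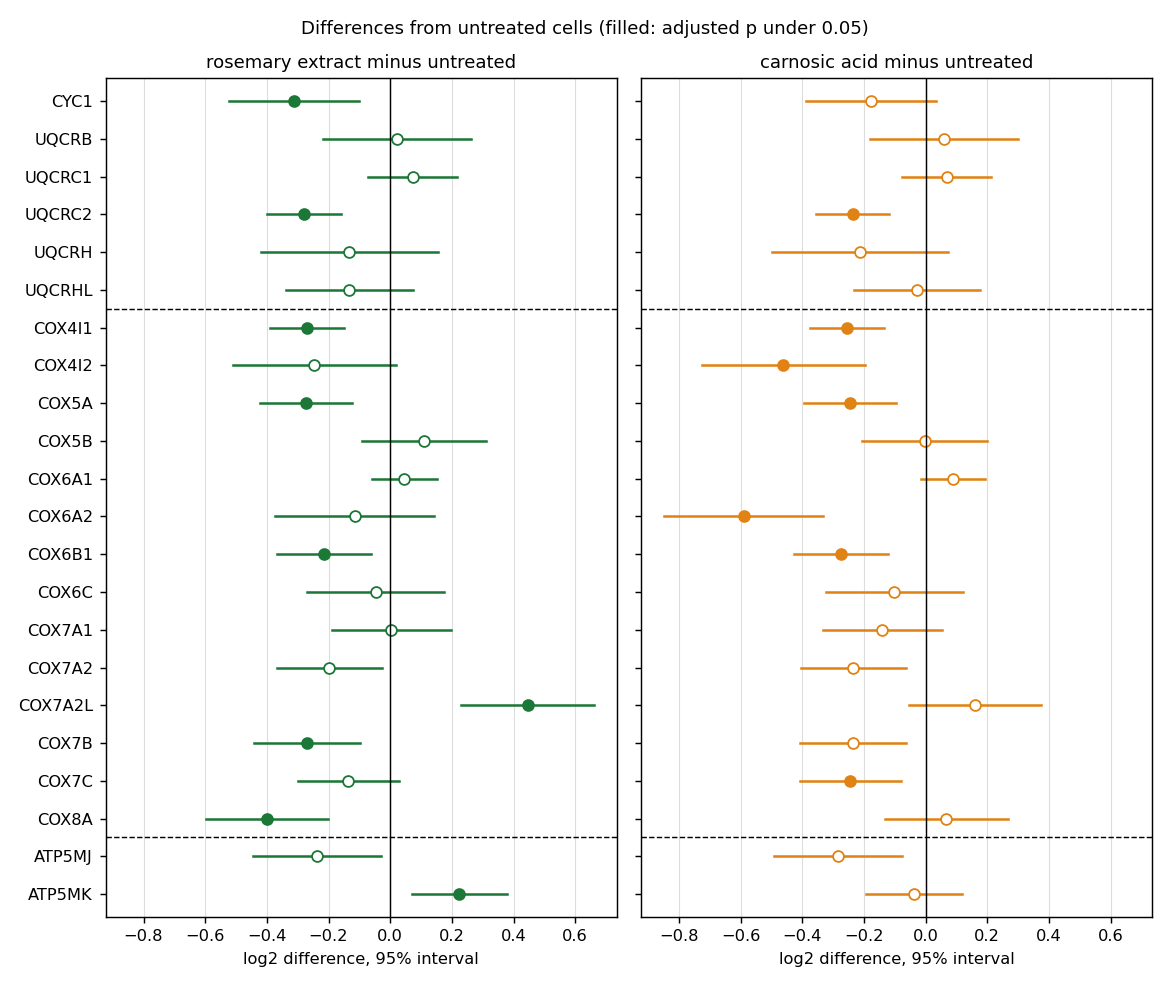
Log2 difference from untreated cells with its 95% interval (x axis) for the 22 tested genes (y axis), rosemary extract left and carnosic acid right, with dashed lines between complex III, complex IV and ATP synthase. Filled points passed an adjusted p of 0.05, 9 of them with the extract and 7 with carnosic acid. All differences lie between -0.59 and 0.45.

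COX4I1, COX5A, COX6B1 and UQCRC2 were called lower in each comparison with untreated cells. COX7B, COX8A and CYC1 were called lower with the extract and did not pass with carnosic acid, and COX4I2, COX6A2 and COX7C the other way round. Because both comparisons use the same untreated arrays, joint calls arise over all genes too and are no separate support. The share of all genes called lower in both was not counted, so how these genes compare with it was not shown. Passing with one treatment and not the other does not show that the treatments differ. In the direct comparison 3 of 22 genes passed (13.6%, against 17.3% of all genes), with ATP5MK and COX6A2 higher and COX8A lower in extract than in carnosic acid cells (8.24% of all genes were called higher and 9.07% lower). Arrays did not overlap for 4 of the 22 genes, COX7A2L being the other, against 31.8% of all genes. The median direct difference was 0.043 for the subunit genes and 0.012 for all tested genes. Without R1 or C1 the higher count of subunit genes was 0 (551 and 762 of all 11163 genes), and without R3 it was 3 (1036). With every array 920 of all genes were called higher. Counted by arrays alone, the treated and untreated values did not overlap for 12 of 22 genes with the extract (54.5%, against 46.7% of all genes), and for 9 with carnosic acid (40.9%, against 32.8%). Of the 12 genes with the extract 10 were lower (21.7% of all genes), and all 9 with carnosic acid were lower (13.1% of all genes, against 19.7% higher).

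The number of subunit genes called lower, like that of all genes, depended on single arrays and on the rows tested. Without R1 or R2, 4 subunit genes were called lower with the extract (1490 and 1480 of all 11163 genes, against 1817 with every array). Without C1 or C2, 4 were called lower with carnosic acid (367 and 568 of all genes, against 683). Testing all rows of the array, named or not, ended the extract calls of ATP5MK, COX6B1, COX7B and CYC1, the carnosic acid calls of COX4I2, COX5A, COX6B1, COX7C and UQCRC2, and the direct calls of ATP5MK and COX6A2 (adjusted p between 0.0525 and 0.131). Other than UQCRHL, 8 tested genes had no pseudogene named in RefSeq. Of these 8, 2 were called lower with the extract, COX8A and CYC1 (16.3% of all genes). With carnosic acid 2 were called lower (6.12% of all genes), COX4I2 and COX6A2, both isoforms usually tied to one tissue. ATP5MJ, COX7A1, COX7A2L, COX8A, CYC1 and UQCRC1 did not pass with carnosic acid. The median differences of the 8 genes were -0.18 and -0.16.

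Of 52 listed assembly factors, proteins that build the complexes, 38 were tested. With the extract 9 were called lower, 2 higher and 27 neither (16.3% of all genes were lower and 21.8% higher). With carnosic acid 4 were called lower, 0 higher and 34 neither (6.12% of all genes were lower and 12.9% higher). Their median differences were -0.092 and -0.049. UQCC2, which supports synthesis of cytochrome b and so assembly of complex III, measured 8.13, 8.19 and 8.33 with rosemary extract, 8.64, 8.74 and 8.80 with carnosic acid, and 9.36, 9.56 and 9.22 in untreated cells. The 3 groups did not overlap, and the carnosic acid arrays lay between the others. UQCC2 was -1.17 ± 0.089 with the extract (SE, 2.24-fold lower, adjusted p = 1.21e-06), -0.65 ± 0.089 with carnosic acid (1.57-fold lower, adjusted p = 0.000453) and -0.51 ± 0.089 between extract and carnosic acid (adjusted p = 0.00194).

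SDHAF3, which matures the iron-sulfur subunit of complex II, was -0.75 with the extract (adjusted p = 0.000261) and -0.42 with carnosic acid (adjusted p = 0.0245). The SDHAF3 difference with carnosic acid did not pass without U2, C1 or C2 (adjusted p = 0.0845, 0.0579 and 0.0762), and the difference between the treatments (-0.33, adjusted p = 0.0684) passed without U2 (adjusted p = 0.0355). NUBPL, which delivers iron-sulfur clusters to complex I, was -0.55 (adjusted p = 0.00421) with the extract and -0.31 (adjusted p = 0.110) with carnosic acid, which passed without U2 (-0.43, adjusted p = 0.0332). COX11, which delivers copper to complex IV, was -0.52 (adjusted p = 0.00130) with the extract and -0.30 (adjusted p = 0.0506) with carnosic acid. For COX11 the carnosic acid difference passed without R1 or R3 (adjusted p = 0.0173 and 0.0391), and the direct difference of -0.21 (adjusted p = 0.187) passed without R1 (-0.33, adjusted p = 0.0261).

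Electron carriers and the enzymes that make them went both ways, with 8 of 18 listed genes tested, 3 higher and 1 lower with the extract (21.8% and 16.3% of all genes) and 2 higher and 1 lower with carnosic acid (12.9% and 6.12%). COQ10B, a coenzyme Q binding protein, measured 8.84, 8.66 and 8.42 with the extract, 8.31, 8.01 and 7.95 with carnosic acid, and 7.41, 7.29 and 7.37 in untreated cells. No group overlapped another. It was 1.28 ± 0.11 with the extract (SE, 2.43-fold higher, adjusted p = 4.38e-06) and 0.73 ± 0.11 with carnosic acid (adjusted p = 0.00112), and 0.55 between the treatments (adjusted p = 0.00620). HCCS, which attaches haem to cytochromes c and c1, was 0.30 with the extract (adjusted p = 0.00494) and 0.27 with carnosic acid (adjusted p = 0.0183). COQ4, of coenzyme Q synthesis, was 0.27 with the extract (adjusted p = 0.0101) and 0.16 with carnosic acid (adjusted p = 0.156). COQ9, of the same pathway, was -0.26 with the extract (adjusted p = 0.00327) and -0.22 with carnosic acid (adjusted p = 0.0168). With carnosic acid HCCS did not pass without U2 or C3 (adjusted p = 0.0654 and 0.0636), nor COQ9 without U1, U2, C1 or C2 (0.0566, 0.0571, 0.0631 and 0.0677) or under median centring (0.0616).

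**Figure D4:**
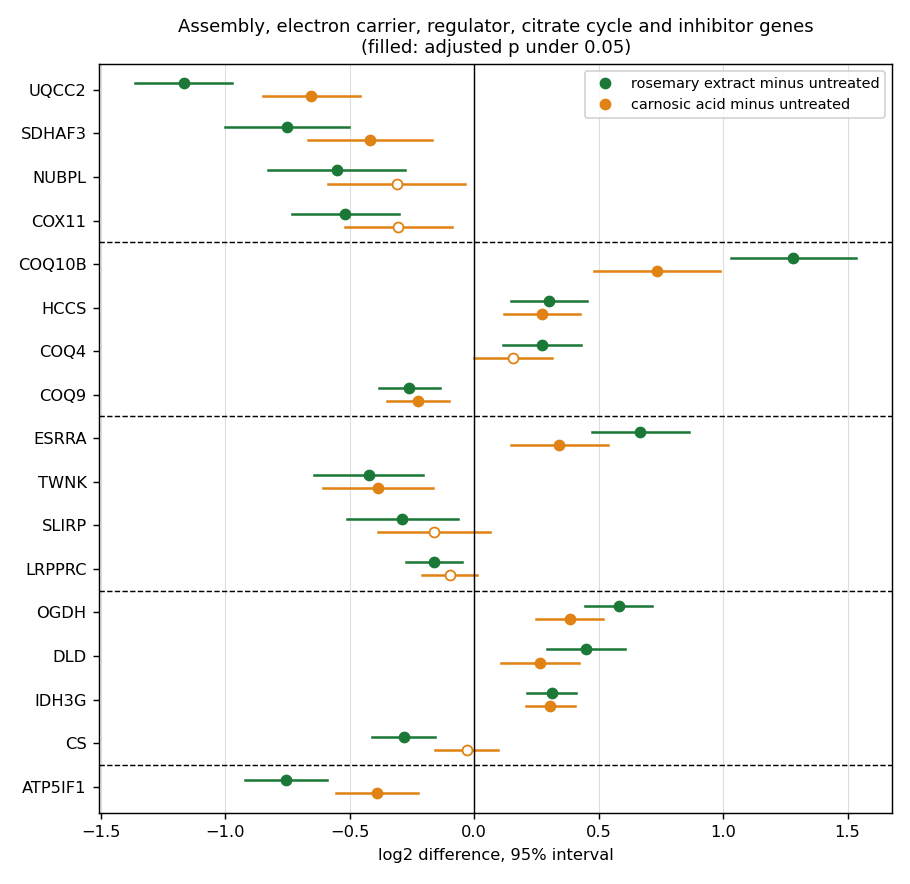
Log2 difference from untreated cells with its 95% interval (x axis) for genes named from 5 lists (y axis, split by dashed lines), from the top assembly factors, electron carriers, regulators, citrate cycle enzymes and the inhibitor ATP5IF1. Green is rosemary extract, orange carnosic acid, and filled points passed an adjusted p of 0.05. UQCC2 lies furthest left (-1.17 and -0.65) and COQ10B furthest right (1.28 and 0.73).

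ATP5IF1, which blocks reverse action of ATP synthase, measured 6.76, 6.81 and 6.69 with rosemary extract, 7.08, 7.06 and 7.20 with carnosic acid, and 7.42, 7.58 and 7.52 in untreated cells. Its 3 groups were again separate, with the extract lowest. ATP5IF1 was -0.76 ± 0.075 with the extract (SE, 1.69-fold lower, adjusted p = 9.86e-06), -0.39 ± 0.075 with carnosic acid (adjusted p = 0.00381) and -0.36 ± 0.075 between extract and carnosic acid (adjusted p = 0.00565). It was the only 1 of 6 further nuclear respiratory genes, listed outside the name patterns, that had a row.

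Among 21 regulators of respiratory and mitochondrial gene expression 9 were tested. With the extract 1 was called higher and 3 lower (21.8% and 16.3% of all genes), and with carnosic acid 1 higher and 1 lower (12.9% and 6.12%). ESRRA, a nuclear receptor that activates respiratory genes, measured 8.10, 8.06 and 7.88 with the extract, 7.75, 7.53 and 7.79 with carnosic acid, and 7.40, 7.38 and 7.27 in untreated cells. The groups did not overlap, and ESRRA was higher by 0.67 ± 0.089 with the extract (SE, adjusted p = 9.88e-05), by 0.34 ± 0.089 with carnosic acid (adjusted p = 0.0196) and by 0.33 between the treatments (adjusted p = 0.0259). Without U3, C1 or C3 the ESRRA difference with carnosic acid did not pass (adjusted p = 0.0619, 0.0807 and 0.0679), nor the direct one without R1, R2 or C2 (0.109, 0.104 and 0.105).

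TWNK, the helicase of mitochondrial DNA, was -0.42 with the extract (adjusted p = 0.00544) and -0.39 with carnosic acid (adjusted p = 0.0194). SLIRP and LRPPRC, partners that stabilise mitochondrial messenger RNAs, were -0.29 (adjusted p = 0.0439) and -0.16 (adjusted p = 0.0264) with the extract. With carnosic acid they were -0.16 (adjusted p = 0.309) and -0.098 (adjusted p = 0.211). With carnosic acid TWNK did not pass without U1, U3 or C1 (adjusted p = 0.0724, 0.0612 and 0.0789). With the extract LRPPRC did not pass without U2, U3, R1 or R3 (0.0626, 0.0817, 0.0576 and 0.0957). Of the arrays left out in turn, SLIRP passed only without U1 or R3 (adjusted p between 0.0534 and 0.151 without any other). Median centring ended the calls of LRPPRC (0.104) and SLIRP (0.0731), as did a fit to the 6 arrays compared (0.0539 and 0.0764).

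The citrate cycle feeds NADH and succinate to the chain, and 7 of its 13 listed enzymes were tested. With the extract 3 were called higher and 2 lower (21.8% and 16.3% of all genes), and with carnosic acid 3 higher and 1 lower (12.9% and 6.12%). OGDH, the first component of the 2-oxoglutarate dehydrogenase complex, was 0.58 ± 0.061 with the extract (SE, adjusted p = 1.6e-05) and 0.38 ± 0.061 with carnosic acid (adjusted p = 0.00123). DLD, the component that this complex shares with others, was 0.45 with the extract (adjusted p = 0.000369) and 0.27 with carnosic acid (adjusted p = 0.0227). IDH3G, a subunit of isocitrate dehydrogenase, was 0.31 with the extract (adjusted p = 0.000173) and 0.31 with carnosic acid (adjusted p = 0.000720). CS, citrate synthase, measured 8.67, 8.71 and 8.59 with the extract, 8.88, 8.90 and 8.95 with carnosic acid, and 8.96, 8.87 and 8.99 in untreated cells. Only the extract arrays of CS stood apart, at -0.28 from untreated cells (adjusted p = 0.00218) and -0.25 from carnosic acid cells (adjusted p = 0.0103), while carnosic acid gave -0.030 (adjusted p = 0.766). With carnosic acid DLD did not pass without U1, U2 or C1 (adjusted p = 0.0866, 0.0529 and 0.101). The direct difference of OGDH (0.20, adjusted p = 0.0487) lay at the threshold and did not pass without U1 or any of the 6 treated arrays (adjusted p between 0.0654 and 0.15). It also did not pass with the replicate block (0.0557), under cyclic loess (0.0678), under median centring (0.0641), with no filter on dim genes (0.0662), with eBayes without trend (0.0979) or with all rows tested (0.183).

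Markers of several cell types were read. Of 16 colon epithelial markers 13 had a row and all 13 were tested. EPCAM lay between 11.1 and 11.4 and KRT18 between 12.0 and 12.6 (log2 values). CDX1 (5.88 to 6.34), CDX2 (5.43 to 5.90), GPA33 (5.92 to 6.34), PHGR1 (4.87 to 5.39) and TFF3 (6.03 to 6.57) were lower. They lay under the median of the tested genes in every array (6.68 to 6.76). That the line is HT-29 rests on the labels, and these levels alone do not show a colon origin. The summed log2 level of the 13 markers was 108.6 to 109.8 with the extract, 109.8 to 110.4 with carnosic acid and 107.4 to 108.9 in untreated cells. Its members moved apart. CEACAM5 averaged 10.0 with the extract, 9.40 with carnosic acid and 7.19 in untreated cells, and KRT20 and CLDN7 were also higher in mean with both treatments. VIL1 averaged 7.26, 8.20 and 8.55 in the same order, and the means of the other 9 markers were also lower with the extract than in untreated cells. Of the fibroblast markers only DCN and LUM had rows (2 of 6), both under the dim limit. Of 6 leukocyte markers CD14, CD68 and LYZ had rows, and their sum was 26.4 to 26.9, 25.9 to 26.6 and 25.2 to 25.4 in extract, carnosic acid and untreated arrays. CD68, also a lysosomal protein of other cells, averaged 9.83, 9.18 and 7.94 in that order, while CD14 averaged 4.67, 4.71 and 4.98 and LYZ 12.17, 12.35 and 12.43. Of 4 hepatocyte markers 2 were tested, and the muscle markers had no row. The part of these shifts in the subunit values was not tested. The median of all rows was 4.82 to 4.90 in every array.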

How the data were processed

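HT-29 RNA was hybridised to 9 Affymetrix whole-transcript gene arrays, 3 per group. The authors deposited log2 expression values made by RMA with the oligo package, per the labels, with the log2 scale read from the values. RMA subtracts background, forces 1 common distribution on all arrays and merges the probes of each row, so it shrinks large differences, gives no detection call and can hide a shift shared by most genes. The sources used here name no version.

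Of 53617 rows, 16098 had 1 gene symbol in the platform annotation and 37519 were unnamed there. All 16098 Entrez identifiers matched RefSeq. The brightest row stood for each of 14884 genes, the lowest 25% were left out, and 11163 were tested in limma 3.58.1 (R 4.3.3, lmFit and eBayes with trend, all 9 arrays, 6 residual degrees of freedom, two-sided). Adjusted p-values are Benjamini-Hochberg over these genes, called under 0.05. The fit was also run on simulated data with independent noise and far fewer changed genes than were called here. That run does not show the error rate in these data. No 2 arrays were identical (0 pairs), and arrays of a group correlated at 0.992 or above.

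Named are all members called against untreated cells, catalytic and tissue-restricted subunits, called members of the direct comparison, and up to 4 called genes of each list with the largest differences; others were named after their values were seen. Members and lists were chosen with earlier results of these data known. Alternatives covered scaling, filters, rows, fit, block and left-out arrays. With 3 arrays a group, their number limits the precision.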

Additional observations from a re-analysis of the deposited data

How the results depend on the processing

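Each result was recomputed under 19 other settings, and the counts and medians also over the 8 tested genes without a named pseudogene; this last setting and centring on the tested genes were chosen after seeing the data. With rosemary extract, the 2 higher calls became 1 with the lowest 50% of genes left out, with all rows tested or without genes with pseudogenes, and 1 to 2 over the left-out arrays. The 7 lower calls became 4 with all rows tested (25 subunit genes) and 2 without genes with pseudogenes, and 4 to 7 over left-out arrays. Over all 11163 genes, 2439 were called higher and 1817 lower in the main fit. With all rows tested these were 4207 and 3023 of 53617 rows, and over left-out arrays 2013 to 2408 and 1480 to 1829. The median of the subunit genes, -0.13, became -0.18 under cyclic loess and -0.17 centred on tested genes. It was -0.21 with the lowest 50% left out and -0.18 without genes with pseudogenes (-0.19 to -0.13 over left-out arrays). With carnosic acid, the 7 lower calls became 4 under median centring, 2 with all rows tested and 2 without genes with pseudogenes (4 to 6 over left-out arrays). Lower calls over all genes, 683 in the main fit, were 473 under median centring. They were 828 of 53617 rows with all rows tested and 367 to 687 over left-out arrays. The median of the subunit genes, -0.19, became -0.16 under median centring, -0.24 centred on tested genes and -0.16 without genes with pseudogenes (-0.23 to -0.16). Between the treatments, the 2 higher calls became 1 with the lowest 50% left out, 0 with all rows tested and 1 without genes with pseudogenes (0 to 3). Higher calls over all genes, 920 in the main fit, were 872 of 53617 rows with all rows tested and 533 to 1036 over left-out arrays. The median of the subunit genes, 0.043, became -0.0061 with the lowest 50% left out and 0.096 without genes with pseudogenes (0.0087 to 0.071). Testing all rows widens the adjustment, and the settings that leave out genes hold fewer of them; other causes were not tested. The count of 0 higher with carnosic acid and of 1 lower between the treatments held in every setting.

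Genes that turned sign were ones not called in that comparison. With the extract, cyclic loess gave 0.0028 for COX6C, and centring on tested genes -0.030 for COX7A1 and -0.0098 for UQCRB. Left-out arrays gave -0.11 to 0.046 for COX6C, -0.039 to 0.052 for COX7A1, -0.098 to 0.13 for UQCRB and -0.23 to 0.039 for UQCRH. With carnosic acid, median centring gave 0.0012 for ATP5MK, 0.036 for COX5B, 0.012 for UQCRHL and 0.0091 for CS. Left-out arrays gave -0.048 to 0.087 for COX5B, -0.030 to 0.16 for COX8A, -0.063 to 0.17 for UQCRB and -0.11 to 0.085 for UQCRHL. Between the treatments, median centring gave -0.0048 for UQCRC1 and -0.0025 for IDH3G. Left-out arrays gave -0.016 to 0.085 for ATP5MJ, -0.053 to 0.024 for COX4I1, -0.065 to 0.022 for COX5A, -0.0056 to 0.15 for COX6C, -0.058 to 0.040 for UQCRC1, -0.086 to 0.00040 for UQCRC2, -0.0077 to 0.080 for HCCS, -0.067 to 0.0080 for COQ9, -0.14 to 0.059 for TWNK and -0.023 to 0.039 for IDH3G.

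Replicate numbers are shared between the groups. Deviations of arrays of the same number correlated at -0.22 to 0.24, and those of unlike number at -0.36 to 0.28. With 3 arrays a group, such values cannot show whether arrays of the same number share a culture day. A fit with the replicate number as a block called 2 higher and 7 lower subunit genes with the extract, 0 and 7 with carnosic acid, and 2 and 1 between the treatments, with medians of -0.13, -0.19 and 0.043. Over all genes it called 4226, 2194 and 1947, against 4256, 2123 and 1933. Among named genes it ended 1 call, the direct difference of OGDH (adjusted p = 0.0557). The array values carry no count or detection call, so levels near 4.50 cannot be told from background.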
